A study of Psophocarpus tetragonolobus with 12 samples.

Results

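Stage-wise expression profiles were described for 4 genes of winged bean (Psophocarpus tetragonolobus) with homologues in flavonoid transport, of 30392 genes listed. They are Psote07G0206000, a homologue of the Arabidopsis glutathione transferase TT19 (GSTF12), and 3 homologues of the ABCC family of ATP-driven transporters, Psote03G0105600 (ABCC3), Psote04G0199900 (ABCC4 and ABCC14) and Psote09G0106600 (ABCC10). The genes were taken by their identifiers and had been selected on their values in these same stages, so their levels and changes are given as a description, without a test. The names are best matches to Arabidopsis or soybean proteins, and transport by the winged bean proteins was not measured.

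Transcripts were measured in untreated pods of FP15, a line with purple pods that served as maternal parent of a mapping cross. Pods came from different plants in a growth chamber. They were taken 15, 30, 37 or 45 days after anthesis (called Day 15 to Day 45), and each stage had 3 libraries of polyadenylated RNA, so that 12 were sequenced. All groups share 1 line and 1 growth condition, and stage is the only factor. The deposited table holds 1 whole-number FPKM value (fragments relative to transcript length and to all mapped fragments) per gene and stage. There are therefore no replicate values, and no stage difference could be compared with the spread between plants. Rounding, by up to 0.5 FPKM, was the sole error open to calculation, and read totals per library were not used here. Summed over all genes, FPKM ranged from 709255 (Day 15) to 795780 (Day 37), and the median of the measured genes was 11 in each stage.

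Anthocyanins are made on the surface of the endoplasmic reticulum and stored in the vacuole. In Arabidopsis, TT19 binds anthocyanin and its precursors as a carrier, and plants without it accumulate little anthocyanin. At the vacuolar membrane, transporters of the ABCC family move glutathione conjugates and, in maize and grapevine, anthocyanins, whereas MATE proteins such as Arabidopsis TT12 exchange flavonoids for protons supplied by the pump AHA10 (TT13). In purple pods, this step follows the enzymes that form and glycosylate the pigment, among them dihydroflavonol reductase (DFR), anthocyanidin synthase (ANS) and the flavonoid glucosyltransferase UGT78D2.

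TT19 was the most abundant of the 4 transcripts in each stage, and its level declined as pods matured while the homologues of ABCC4/ABCC14 and of ABCC10 accumulated. The TT19 homologue (Chr07.2, 17744260 to 17745246, positions on the assembly scaffolds used by the deposited table) was at 506 FPKM at Day 15 and at 477, 336 and 223 FPKM in the 3 later stages. The highest value was at Day 15 and the lowest at Day 45, and the levels of neighbouring stages differed by more than rounding allows. Among genes that reached 1 FPKM in a stage (22459 genes, called measured here), TT19 had rank 115 at Day 15, then 147, 244 and lastly 410. It thus stayed above the 98th percentile of level throughout, at 98.2% in the last stage.

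From Day 15 to Day 45, TT19 fell by 1.18 on the log2(FPKM+1) scale, and rounding allows -1.18 to -1.17. The Day 15 level was 2.27 times the Day 45 level. A gene is called higher or lower here where log2(FPKM+1) moved by at least 1 (2-fold), a scale on which low genes appear to move less than they did. Of all measured genes, 19.4% were lower and 14.3% were higher by this rule. Of the 1142 genes at 100 FPKM or more at Day 15, 28.4% were lower. TT19 lay at the 12.8th percentile of change over all measured genes. When stages were rescaled by the 2 reference genes of the quantitative PCR, its change was -0.96, short of 2-fold, although that scaling also moved the median of all genes by 0.15. Relative to this shift, the change of TT19 was -1.11.

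As deposited, most of the decline of TT19 fell after Day 30. From Day 15 to Day 30 it changed by -0.08 on the log2 scale, from Day 30 to Day 37 by -0.50 and from Day 37 to Day 45 by -0.59. No single step reached 2-fold. Per day of interval, the change was -0.0057 in the first step, -0.072 in the second and -0.074 in the last. With the quantitative PCR reference genes this order was lost, with steps of -0.42, -0.31 and -0.23 and daily changes of -0.028, -0.045 and -0.029. With equal sums the steps were -0.22, -0.54 and -0.51, so the first was larger than as deposited and the last no longer the largest. TT19 was lower in each step under all of these scalings, as were 8.95% of all measured genes as deposited. Among the 1142 genes at 100 FPKM or more at Day 15, a level that TT19 exceeded, 385 (33.7%) were lower in each step.

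**Figure D1:**
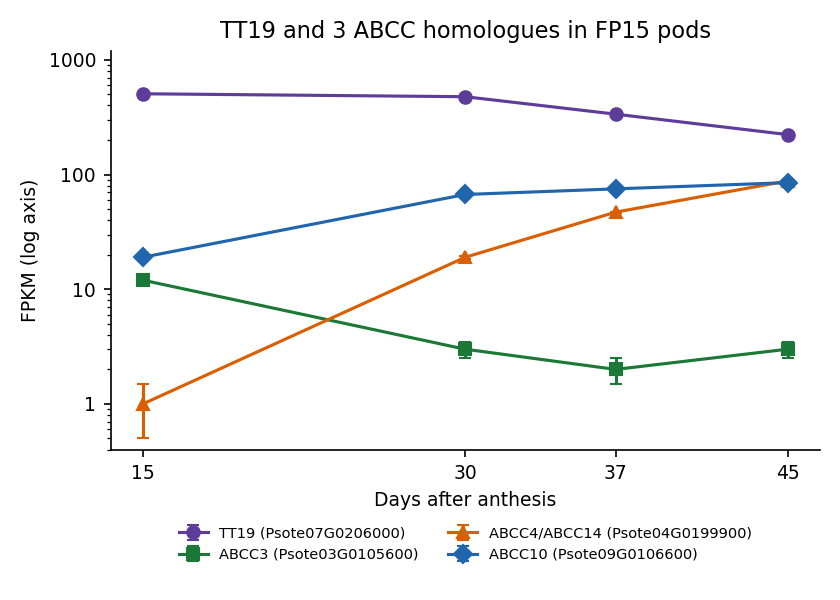
FPKM (log axis) of the TT19 homologue and the 3 ABCC homologues against days after anthesis, 1 value per gene and stage, with bars for rounding (0.5 FPKM either way). TT19 declines from 506 to 223 FPKM, ABCC4/ABCC14 rises from 1 to 88 FPKM, ABCC10 rises from 19 to 85 FPKM and ABCC3 drops from 12 to 3 FPKM.

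The ABCC4/ABCC14 homologue Psote04G0199900 (Chr04.2, 12869716 to 12879765) showed the largest change of the 4 genes. It began at 1 FPKM at Day 15 and stood at 19, 47 and 88 FPKM thereafter. Each stage was above the one before. Arabidopsis ABCC4 is known from guard cells, where it takes part in the control of stomata. The change from Day 15 to Day 45 was 5.48 on the log2 scale, and rounding of the low first value allows 5.15 to 5.90. The linear ratio of 88 is accordingly loose, and rounding allows 58.3 to 177.

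Psote04G0199900 moved from rank 19284 among the measured genes at Day 15 to rank 1462 at Day 45. Only 54 of the measured genes had a larger rise over the same interval. Of the 3176 measured genes at 1 FPKM or less at Day 15, 21 (0.661%) reached 88 FPKM or more at Day 45, and 15 of these were higher in each step. Both cutoffs are the values of Psote04G0199900, which is itself counted among the 21 and the 15, so these counts are a description only. The gene changed by 3.32 on the log2 scale from Day 15 to Day 30, by 1.26 from Day 30 to Day 37 and by 0.89 from Day 37 to Day 45. The first step, also the longest at 15 days, held 60.7% of the whole log2 change. In FPKM, however, the last step was the largest, with an increase of 41 against 18 and 28 in the steps before. Per day of interval, the log2 change was 0.22, 0.18 and 0.11 in turn. With the quantitative PCR reference genes the first step held 53.0%, and the daily changes were 0.20, 0.21 and 0.16.

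The ABCC10 homologue Psote09G0106600 (Chr09.4, 7621292 to 7627710) rose mainly before Day 30. It had 19 FPKM at Day 15, followed by 67, 75 and 85 FPKM in turn. The change to Day 45 was 2.10 on the log2 scale, with 2.06 to 2.15 allowed by rounding, and 881 measured genes rose more. The first step contributed 1.77, the second 0.16 and the last 0.18, so that 83.9% of the log2 change fell before Day 30. Both later steps were larger than rounding allows but short of 2-fold. With the quantitative PCR reference genes the steps were 1.44, 0.35 and 0.53, and the first held 62.0% of the change, so the flatness after Day 30 depends on the scaling.

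The ratio between the 2 rising ABCC homologues changed in each step. At Day 15, ABCC10 was at 19 times the level of ABCC4/ABCC14, although rounding allows 12.3 to 39. The ratio went to 3.53, then 1.60 and finally 0.97. At Day 45 the values of 88 and 85 FPKM differed by more than rounding, but whether they differ beyond the spread between plants was not tested.

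The ABCC3 homologue Psote03G0105600 (Chr03.1, 19779103 to 19785218) moved the other way and was the least abundant of the 4 genes from Day 30 onwards. It was at 12 FPKM at Day 15 and at 3, 2 and 3 FPKM in the 3 later stages. Day 15 stood alone, and the later values of neighbouring stages cannot be separated from rounding. Arabidopsis ABCC3 transports glutathione conjugates and chlorophyll breakdown products. The change from Day 15 to Day 30 was -1.70 on the log2 scale, equal to that from Day 15 to Day 45, with -1.95 to -1.47 allowed by rounding. ABCC3 lay at the 7.59th percentile of change over all measured genes from Day 15 to Day 45.

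**Figure D2:**
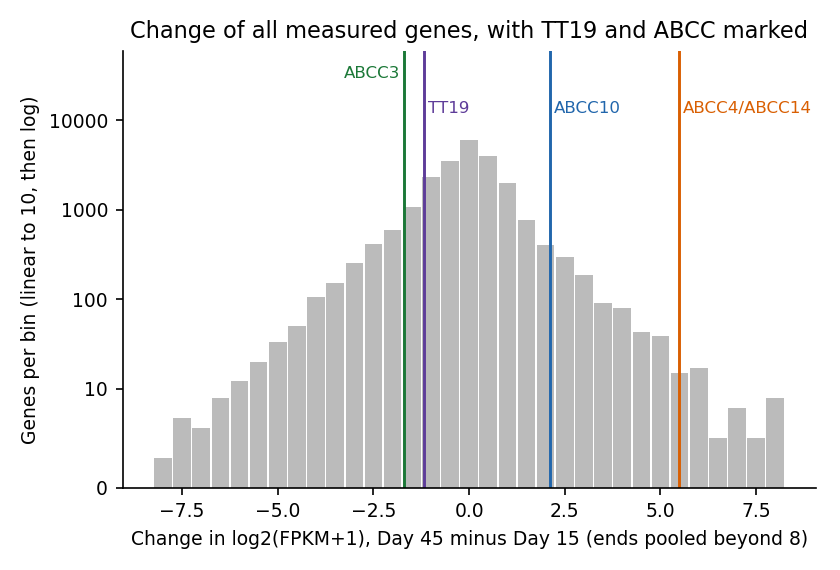
Number of measured genes (vertical axis, linear to 10 and then logarithmic) by change in log2(FPKM+1) from Day 15 to Day 45 (horizontal axis, bins of 0.5, with values beyond 8 pooled in the end bins), with lines at the TT19 and ABCC homologues. ABCC3 at -1.70 and TT19 at -1.18 lie to the left of the centre, ABCC10 at 2.10 to the right and ABCC4/ABCC14 at 5.48 in the right tail.

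Most called steps of the 4 genes lay between Day 15 and Day 30, the longest interval (15 days, against 7 and 8 days). In this interval ABCC4/ABCC14 and ABCC10 were higher and ABCC3 was lower, where 9.47% of all measured genes were higher and 13.7% lower. From Day 30 to Day 37, ABCC4/ABCC14 alone of the 4 was higher, with 3.47% of all measured genes higher and 3.69% lower. From Day 37 to Day 45, 0 of the 4 passed, with 3.53% higher and 5.13% lower among all measured genes, although ABCC4/ABCC14 (0.89) reached 1.24 with the quantitative PCR reference genes. These shares are printed for scale only, since the genes were selected on the same values.

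Of the 16 genes that flank the 4 genes, 2 on each side, 6 changed by 2-fold or more from Day 15 to Day 45. Of these, 4 were higher and 2 lower, where 14.3% of all measured genes were higher and 19.4% lower. In direction, 5 of the 6 matched the gene they flank. The share of such matches over all genes was not calculated, and whether flanking genes change together was not tested. The 5 include both ABCC10 homologues described next, which may belong to 1 gene. Another, at 20100 bases from ABCC3, is Psote03G0105700, which went from 21 to 7 FPKM (-1.46). Psote04G0199700, at 6925 bases from ABCC4/ABCC14, went from 5 to 13 FPKM (1.22), with its highest value of 25 FPKM at Day 30. Psote07G0205800, at 18044 bases from TT19, went from 2 FPKM to a listed 0. The exception was Psote07G0206100, at 32500 bases from TT19, which went from 446 to 946 FPKM (1.08). The other 10 did not reach 2-fold, and 3 of them were listed at 0 throughout and so are not among the measured genes.

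A pair of shorter ABCC10 homologues lie beside Psote09G0106600 on Chr09.4, at low level and with the same early rise. Psote09G0106500 (7609501 to 7614321), which ends 6970 bases before Psote09G0106600, began at 2 FPKM at Day 15 and stood at 6, 7 and 8 FPKM thereafter. Psote09G0106400 (7608810 to 7609435), a further 65 bases away, was at 2, 7, 6 and 8 FPKM in the same order. Both changed by 1.58 on the log2 scale. No sequence was available here, so how far these copies share reads is not known, and the levels within this cluster are uncertain. Whether both models belong to 1 gene was not tested. Together the 3 genes went from a sum of 23 FPKM to 101 FPKM between the first and the last stage.

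The other pair of ABCC10 homologues, on Chr04.1, did not follow this rise. Psote04G0095600 (19209926 to 19219133) had 30 FPKM at Day 15, followed by 22, 21 and 32 FPKM in turn, lowest in the middle stages. Its change over the whole interval was 0.09 on the log2 scale and -0.01 after quantile normalization. Its neighbour Psote04G0095700 (19283000 to 19289717) was listed at 1 FPKM at Day 15 and at 0 in the other stages, which is within reach of rounding.

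The relatives of ABCC4 and ABCC14 also moved apart. Psote05G0300600 (ABCC14, Chr05.3, 18962927 to 18968597) went from 36 FPKM at Day 15 to 25, 13 and 11 FPKM in the later stages, a change of -1.62. Psote02G0364600 (ABCC4, Chr02.5, 31677090 to 31685734) was at 16, 20, 24 and 27 FPKM, a change of 0.72 that did not reach 2-fold. Thus Psote05G0300600 exceeded Psote04G0199900 at Day 15 and Day 30 and lay below it at Day 37 and Day 45.

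Of the remaining ABCC genes, 1 passed the 2-fold threshold. Psote07G0022600 (ABCC9, Chr07.1, 3225606 to 3238044) went from 20 FPKM at Day 15 to 33, 34 and 48 FPKM, a change of 1.22. Psote02G0308400 (ABCC1/ABCC2, Chr02.5, 23176459 to 23200957) is the homologue of the Arabidopsis vacuolar pumps for phytochelatin complexes, of which ABCC2 also transports anthocyanin together with glutathione. It was at 34, 33, 36 and 41 FPKM, a change of 0.26. Psote05G0118000 (ABCC3/6/7) and Psote03G0263000 (ABCC11/12/13) stayed at 4 FPKM or less, with changes of -0.42 and -0.74, of which the first was 0.00 after quantile normalization.

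**Figure D3:**
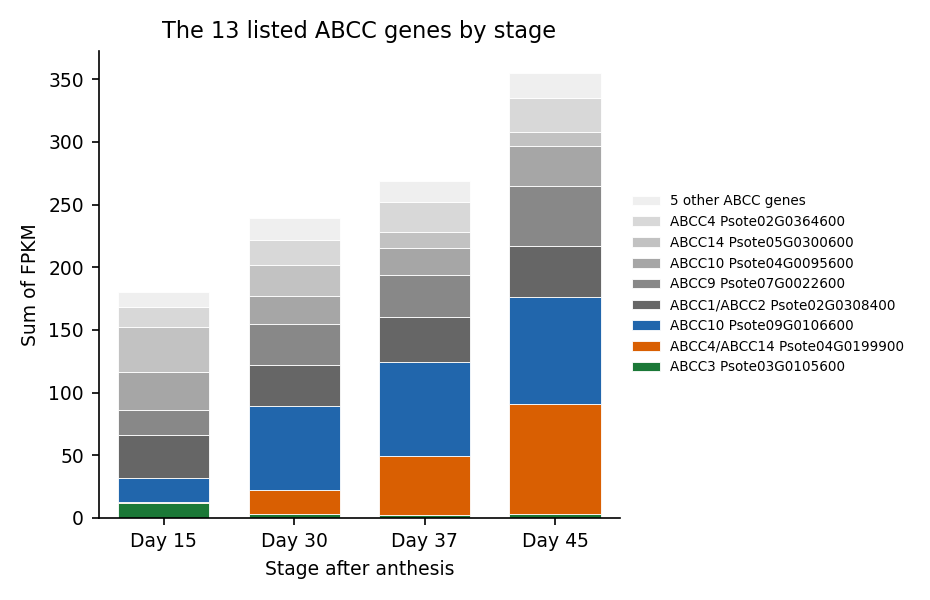
Sum of FPKM over the 13 listed ABCC genes (vertical axis) by stage, with ABCC3, ABCC4/ABCC14 and ABCC10 of the 4 described genes in colour and other ABCC genes in grey. The sum grows from 180 to 355 FPKM, and the coloured part from 32 to 176 FPKM.

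Summed over the 13 listed ABCC genes, the level grew from 180 FPKM at Day 15 through 239 and 269 FPKM to 355 FPKM at Day 45. The 3 selected homologues made up 32, 89, 124 and 176 FPKM of these sums. Their share was 17.8%, 37.2%, 46.1% and 49.6%, rising in each step. The other 10 genes summed to 148, 150, 145 and 179 FPKM, so that until Day 37 the sum grew through the selected genes. FPKM is relative to transcript length, which allows levels to be added across genes, but these sums do not give protein or transport.

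The leading ABCC gene changed from stage to stage. At Day 15 it was Psote05G0300600 (ABCC14) with 20.0% of the ABCC sum, followed by Psote02G0308400 (ABCC1/ABCC2) with 18.9%. At Day 30 and Day 37 it was Psote09G0106600 (ABCC10) with 28.0% and 27.9%. At Day 45 Psote04G0199900 (ABCC4/ABCC14) with 24.8% and Psote09G0106600 with 23.9% lay close together. The TT19 level was 2.81 times the ABCC sum at Day 15, and the ratio went to 2.0, 1.25 and 0.63 in the later stages.

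The MATE and proton pump homologues had smaller values at Day 45 than at Day 15, but of these 3 genes TT12 alone reached the 2-fold threshold. Psote08G0030900 (TT12, Chr08.1, 3285564 to 3290764), the homologue of the seed coat transporter of glycosylated flavan-3-ols, was at 7, 9, 6 and 3 FPKM in the 4 stages. Its change of -1 lay exactly at the threshold, and it was -0.77 after quantile normalization and -0.84 with the quantitative PCR reference genes. Psote04G0100000 (FFT/DTX35, Chr04.1, 20496571 to 20501309), the homologue of a flavonoid transporter of Arabidopsis flowers, was at 12, 8, 6 and 7 FPKM, a change of -0.70. Both were far below TT19 in each stage.

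Psote05G0353100 (TT13/AHA10, Chr05.3, 29859033 to 29872097), the homologue of the pump that energises TT12, followed TT19 closely in time. It was at 57 FPKM at Day 15 and at 52, 41 and 31 FPKM in the 3 later stages. The change of -0.86 did not reach 2-fold. The ratio of TT19 to this gene was 8.88, 9.17, 8.20 and 7.19 in the 4 stages.

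Of the 17 listed transport genes, all of them measured, 5 were higher and 5 were lower at Day 45 than at Day 15, and the median change was -0.42 against 0.00 over all measured genes. That median is the value of Psote05G0118000, at 3 and 2 FPKM, and after quantile normalization the median of the 17 was -0.01. The higher genes were ABCC4/ABCC14, the 3 clustered ABCC10 homologues and ABCC9. The lower genes were TT19, ABCC3, ABCC14 (Psote05G0300600), TT12 and Psote04G0095700, the last going only from a listed 1 to a listed 0. Of the 13 genes outside the selected set, 3 were higher and 3 were lower (23.1% each), beside 14.3% and 19.4% of all measured genes. These higher genes include the pair of short ABCC10 homologues, which may belong to 1 gene. The lower ones include Psote04G0095700 and TT12, which lay exactly at the threshold. With the quantitative PCR reference genes, 3 rather than 5 of the 17 were lower, since TT19 and TT12 fell short of 2-fold.

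**Figure D4:**
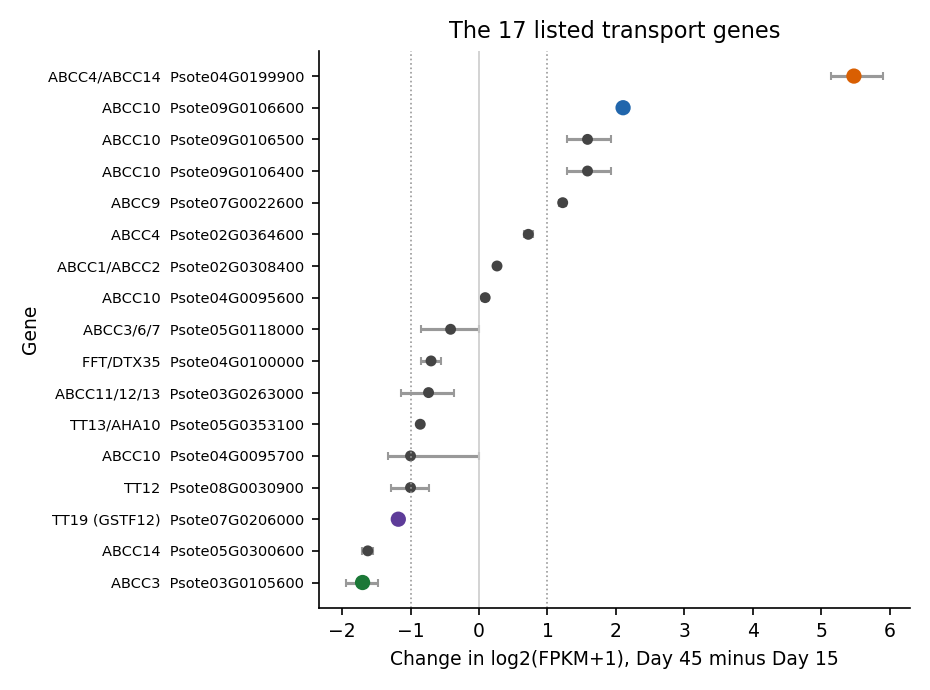
Change in log2(FPKM+1) from Day 15 to Day 45 (horizontal axis) for the 17 listed transport genes, with bars for what rounding allows, larger coloured points for the 4 described genes and dotted lines at the 2-fold threshold. The changes run from -1.70 (ABCC3) to 5.48 (ABCC4/ABCC14), with 5 genes at or beyond each dotted line.

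The late pathway genes, which form and decorate the pigment, moved in both directions. Of 20 listed, 8 were higher and 7 were lower at Day 45 than at Day 15, with a median change of 0.63. These are 40% and 35%, beside 14.3% and 19.4% of all measured genes. ANS and UGT78D2, the genes of their steps with the highest mean, declined more than TT19. ANS (Psote01G0255900) was at 266, 226, 110 and 53 FPKM, and the ratio of TT19 to ANS was 1.90, 2.11, 3.05 and 4.21 in the 4 stages. UGT78D2 (Psote03G0138100) was at 110, 73, 35 and 16 FPKM, and the ratio of TT19 to it grew from 4.6 to 13.9. Both ratios increased in each step by more than rounding allows, and a ratio within a stage does not depend on the scaling of that stage. They hold for these genes only, since other genes of the same steps did not all decline. UGT75C1 (Psote07G0242800) was at 36, 43, 54 and 55 FPKM and exceeded UGT78D2 at Day 37 and Day 45. The ANS gene Psote07G0201100 was at 25, 30, 32 and 40 FPKM, whereas the glucosyltransferase gene Psote07G0019700 fell from 68 to 6 FPKM.

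The 2 leading DFR genes gave opposite ratios. Against Psote03G0413000, the DFR gene with the highest mean, which was at 56, 190, 181 and 143 FPKM, TT19 went from 9.04 times at Day 15 to 2.51, 1.86 and 1.56 times. Against Psote08G0200700, the copy matched to Arabidopsis TT3 and added after its values were seen, TT19 went from 3.09 to 5.07, 5.6 and 6.76 times. The transcripts of TT19 and of the reductase step therefore did not keep a fixed ratio for either copy.

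**Figure D5:**
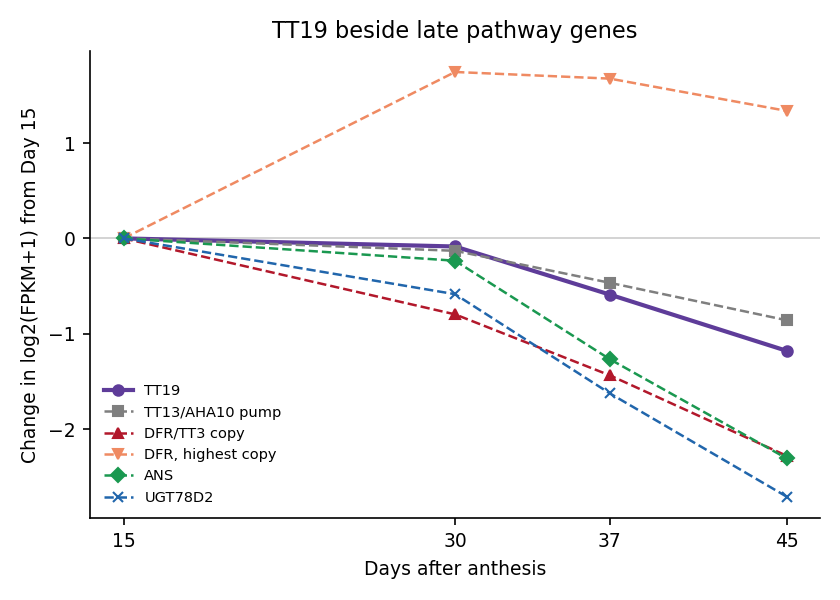
Change in log2(FPKM+1) relative to Day 15 (vertical axis) against days after anthesis for TT19 (thick line), the AHA10 homologue, 2 DFR genes, ANS and UGT78D2 (dashed lines), 1 value per gene and stage. At Day 45, TT19 lies at -1.18, close to AHA10 at -0.86 and above ANS, UGT78D2 and the TT3-matched DFR, while the most abundant DFR gene lies above 0.

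Genes with the most similar profile were found by the Euclidean distance between centred log2(FPKM+1) values over the 4 stages, among 15658 other genes with a mean of 5 FPKM or more. With 4 points per gene, small distances are common, and 643 genes (4.11%) lay within 0.5 of TT19 and 356 (2.27%) within 0.5 of ABCC10. In contrast, 78 genes (0.498%) lay within 0.5 of ABCC3 and 6 genes (0.0383%) within 0.5 of ABCC4/ABCC14. The profile of ABCC4/ABCC14 thus had the fewest close matches of the 4 by this measure. Profiles were centred but not scaled, so distances grow with the size of the change. The low count for ABCC4/ABCC14 therefore cannot be separated from its large change, on which it was selected.

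Of 177 genes compared from the anthocyanin gene list, those nearest to TT19 were Psote04G0319200 (TT8, a bHLH regulator of the pathway) at 0.26, the AHA10 homologue at 0.28 and Psote05G0264400 (TTG2, a WRKY factor) at 0.33. The TT8 homologue was at 14, 10, 8 and 5 FPKM. Over the whole table, Psote07G0097800 at 0.045, Psote01G0274900 at 0.063 and Psote09G0064300 at 0.064 were nearer, none of which is on that list. The last of them was at 157, 145, 98 and 68 FPKM.

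For ABCC10, the nearest genes of the anthocyanin list were Psote01G0156600 (BBX22) at 0.26, Psote05G0030200 (PMAT2, matched to a phenolic glucoside malonyltransferase) at 0.30 and Psote03G0038600 (GL3, a bHLH regulator) at 0.30. Psote05G0030200 was at 13, 36, 40 and 50 FPKM, and Psote03G0038600 at 3, 12, 17 and 20 FPKM. Over the whole table, Psote02G0359500, Psote02G0357200 and Psote02G0255000 were nearest, at 0.057, 0.060 and 0.085. All 3 lie on Chr02.5, which holds 6.83% of the compared genes. The shared scaffold was read from the ranked genes themselves, and the share is printed for scale only. Whether genes of this scaffold are more frequent among close matches was not tested. Since Psote02G0359500 was at 1, 6, 7 and 8 FPKM, rounding could change its distance and its place among the nearest genes.

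For ABCC4/ABCC14, the nearest genes of the anthocyanin list were more distant, with Psote01G0130800 (BGLU46) at 0.87, Psote05G0180000 (FT/TFL1) at 0.96 and Psote06G0059600 (MYB111) at 1.13. Psote01G0130800 was at 2, 16, 31 and 97 FPKM. Over the whole table, Psote08G0027800 at 0.14, Psote02G0357000 at 0.21 and Psote02G0002700 at 0.32 were nearest. Psote08G0027800 was at 1, 22, 51 and 94 FPKM, close to ABCC4/ABCC14 in level as well.

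For ABCC3, the nearest genes of the anthocyanin list were Psote02G0200100 (UGT89C1, a flavonol rhamnosyltransferase in Arabidopsis) at 0.61, Psote07G0068800 (chalcone isomerase) at 0.69 and Psote08G0145300 (WRKY11) at 0.74. Psote02G0200100 was at 12, 4, 4 and 3 FPKM. Over the whole table, Psote07G0028400 at 0.19, Psote03G0399400 at 0.20 and Psote07G0227600 at 0.28 were nearest. The low FPKM of ABCC3 makes its profile coarse, with -1.95 to -1.47 allowed by rounding for the change to Day 45. For ABCC4/ABCC14, which began at 1 FPKM, the range is wider, from 5.15 to 5.90. Rounding was not carried into the distances.

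Tissue markers also moved between stages. Of the 2 FUL/AGL8 homologues, which mark the pod valve in Arabidopsis, Psote02G0201200 was at 53, 74, 97 and 85 FPKM and Psote05G0027400 at 1 FPKM in each stage. Of 25 globulin and legumin genes, markers of seed tissue, 18 were measured and 11 to 12 were listed at 0 in any 1 stage. Their summed level was 324, 225, 288 and 362 FPKM in the 4 stages. This sum mixes opposite moves. Between the first and the last stage, Psote03G0078700 went from 148 to 12 FPKM and Psote05G0226200 from 31 to 114 FPKM. From Day 15 to Day 45, 7 of the 18 were higher and 8 lower (38.9% and 44.4%), beside 14.3% and 19.4% of all measured genes. From Day 15 to Day 30, 11.1% were higher and 33.3% lower, beside 9.47% and 13.7%. From Day 30 to Day 37, 27.8% were higher and 5.56% lower, beside 3.47% and 3.69%. From Day 37 to Day 45, 22.2% were higher and 16.7% lower, beside 3.53% and 5.13%. The part of these shifts in the transport gene profiles was not tested. In bulk pod tissue, fewer cells of a type and less RNA per cell cannot be told apart.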

How the data were processed

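Pods of FP15 were sequenced at 4 stages, with 3 libraries each, grouped by the submitters' sample titles. The authors trimmed reads (fastp), mapped them to their assembly of the green-podded line Ma3 (HISAT2 2.0.5), counted them per gene without strand (featureCounts 1.5.0-p3) and deposited whole-number FPKM. Since 100% of the values are whole, the deposited FPKM, which the authors had scaled to gene length and mapped fragments and then rounded, were handled as a score. The step that merged 3 libraries into 1 value is not given in the sources. There were 0 columns of other samples. Whether differences between Ma3 and FP15 affected mapping was not tested.

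Changes were calculated on log2(FPKM+1), with a pseudocount of 1, for genes at 1 FPKM or more in a stage, and called at 2-fold. With 1 value per stage, no test was run. Calls and profile matching were tested on simulated data. The members and lists were chosen with earlier results of these data known. The text names the 4 genes, the 13 other transport homologues, the DFR, ANS and glucosyltransferase genes with the highest mean and the 3 nearest profiles per gene and pool. Further DFR, ANS and glucosyltransferase genes were named for contrast after their values were seen. The transport, late pathway and anthocyanin lists (279 genes, all in the table) follow the study's homologue names, and neighbouring genes were added later. The reference gene table, of another assembly, matched 0 identifiers, so no sequence is shown. Calculations used pandas 2.3.3 and numpy 2.4.6 under Python 3.11.15, and plots matplotlib 3.10.9.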

Additional observations from a re-analysis of the deposited data

How the results depend on the processing

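Directions from Day 15 to Day 45 were kept by the 4 genes under all 6 alternatives (2 pseudocounts, 3 rescalings and quantile normalization). A pseudocount cannot turn a direction. The rescaling factors of Day 15 and Day 45, 0.983 to 1.22, were too near 1 to turn changes of this size. The kept directions therefore add little, and the sizes are given instead. Of 24 values, 23 stayed at 2-fold or more. The exception was TT19 with the quantitative PCR reference genes (-0.96). TT19 was at -1.27 with equal sums, -1.24 with the median ratio and -1.30 after quantile normalization. With pseudocounts of 0.1 and 0.01, ABCC3 was at -1.97 and -2.0, ABCC4/ABCC14 at 6.32 and 6.45 and ABCC10 at 2.16 and 2.16. ABCC10 was at 2.02 with equal sums, 2.04 with the median ratio, 2.03 after quantile normalization and 2.32 with the reference genes. All 4 called steps kept 2-fold in 24 of 24 values, but 28 of 72 stepwise values moved beyond rounding, and with the reference genes the first step of TT19 went from -0.08 to -0.42. Of the 17 transport genes, 3 were lower with the reference genes, and a 4-fold threshold left 2 higher and 0 lower. Without the tandem neighbours of ABCC10, the 3 selected genes held 51.9% of the ABCC sum at Day 45. Leaving out other genes can only raise this share.

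No paired analysis was possible because the table holds 1 value per gene and stage, and leaving out a replicate was not possible for the same reason. Limits are the unknown spread between plants and possible shared reads among the ABCC10 copies. Rounding is a further limit for values of a few FPKM, such as those of ABCC3 and of ABCC4/ABCC14 at Day 15.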

Other observations

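The 2 reference genes of the quantitative PCR, used above for 1 of the rescalings, were themselves not level in these pods. PtELFa (Psote09G0074300) went from 707 FPKM at Day 15 to 608, 556 and 570 FPKM. PtTUB6 (Psote05G0184000) was at 354, 656, 549 and 326 FPKM in the same stages, highest at Day 30. Rescaling by their geometric mean multiplied the Day 30 values by 0.829 and the Day 45 values by 1.22, whereas the median ratio of genes at 5 FPKM or more gave 0.996 and 0.983.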
